A study of Mus musculus with 6 samples.

Results

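The CXC chemokine ligand genes followed here in primary murine hepatocytes were Cxcl1, Cxcl2, Cxcl3, Cxcl5, Cxcl9, Cxcl10, Cxcl11, Cxcl12, Cxcl14 and Cxcl16. They were taken by name, after Ensembl identifiers had been matched to GENCODE M21 symbols, and make up 10 of the 41388 genes measured and 10 of the 12693 that were tested because their mean RPKM reached 0.5. RPKM is the number of reads on a gene scaled to its length and to the depth of the library, so that levels of different genes are compared per length. The hepatocytes came from C57BL/6J mice, were isolated with collagenase, rested in culture overnight, and received an adenovirus encoding either β galactosidase (β-gal; replicates 1, 2 and 3) or ALOXE3 (Aloxe3; replicates 7, 8 and 9). RNA was taken 24 h later, and the comparison asks what forced expression of Aloxe3, the gene of the lipoxygenase eLOX3, does to the hepatocyte transcriptome. Both groups carried virus and no library came from cells without it, so a response to the virus itself was not measured. The promoter driving the transgenes, and whether replicates were separate cultures or animals, are not given in the sources used here. The p-values therefore measure only the spread between these libraries.

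CXC chemokines are small secreted proteins that bind heparan sulfate on cell surfaces and guide leukocytes through G protein-coupled receptors. Those with a glutamate-leucine-arginine (ELR) motif ahead of the CXC cysteines, Cxcl1, Cxcl2, Cxcl3 and Cxcl5, attract neutrophils through Cxcr2, and their genes are classical targets of NF-κB downstream of IL-1, TNF and Toll-like receptors. Cxcl9, Cxcl10 and Cxcl11 are induced by interferons and attract T cells through Cxcr3, while Cxcl12 and Cxcl14 are made constitutively in many tissues and Cxcl16 is a membrane-anchored ligand of Cxcr6. In the injured liver, hepatocytes are one of several cell types known to make ELR and interferon-induced ligands.

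Promoter stretches of Cxcl1, Cxcl2 and Cxcl3 are shown here because all 3 hold a motif that the choice of genes did not use. A stretch of 1 interferon-induced gene, Cxcl10, is shown beside them. RefSeq promoter windows (GRCm38.p6, from 250 bases before to 50 bases after each start) were on hand for 7 of the 10 genes, namely Cxcl1, Cxcl2, Cxcl3, Cxcl9, Cxcl10, Cxcl12 and Cxcl14. Each was searched on both strands for an NF-κB motif (GGG, any 2 bases, TTTCC), an interferon-stimulated response motif (GAAA, any 2 bases, GAAA) and a GAS motif (TTCNNNGAA). Capitals mark the NF-κB motif in the first 3 sequences and the interferon-stimulated response motif in the last. The stretches are chr5:90891135-90891204 (+) for Cxcl1, chr5:90903789-90903858 (+) for Cxcl2, chr5:90785991-90786060 (+) for Cxcl3 and chr5:92349050-92349119 (-) for Cxcl10, each written 5′ to 3′ on the gene's strand.
Cxcl1: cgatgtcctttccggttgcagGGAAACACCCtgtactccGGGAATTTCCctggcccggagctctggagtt
Cxcl2: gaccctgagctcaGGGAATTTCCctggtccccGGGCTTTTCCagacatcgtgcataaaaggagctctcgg
Cxcl3: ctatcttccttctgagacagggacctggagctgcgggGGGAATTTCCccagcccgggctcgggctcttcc
Cxcl10: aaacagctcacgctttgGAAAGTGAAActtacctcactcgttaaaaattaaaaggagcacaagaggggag

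Cxcl1, Cxcl2 and Cxcl3 each held the 10-base run GGGAATTTCC within 100 bases of the start, from base -71 in Cxcl1, -97 in Cxcl2 and -73 in Cxcl3. Cxcl1 carried another NF-κB match on the opposite strand (from -89 to -80) and Cxcl2 another on its own strand (from -78 to -69). The NF-κB motif was found in 3 of the 7 windows, against 1.63% of the 32851 promoter windows of the mouse genome. The interferon-stimulated response motif lay in 2 of the 7, Cxcl10 (from -213 to -204) and Cxcl14 (from -172 to -163), against 3.44% of all windows, and the GAS motif in 1, Cxcl14, against 8.3%. No match of these letters was present in the windows of Cxcl9 and Cxcl12. These are matches of letters only, and binding was not measured. Each motif was searched in a fixed form, so a window without a match, that of Cxcl10 for NF-κB included, may hold other forms of it.

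Expression of the targeted gene followed the labels. Aloxe3 had 2.04, 2.06 and 1.74 RPKM in the β-gal libraries and 42.3, 45.8 and 56.3 RPKM in the Aloxe3 libraries, counted at the mouse gene. Library sizes, read from the steps of the RPKM values, were 25521908 to 32431318 reads, and a single read per kb of gene corresponded to 0.0308 to 0.0392 RPKM. Differences were tested with limma on log2(RPKM + 1), with Benjamini-Hochberg adjustment over all tested genes, and 50 genes (0.394%) passed an adjusted p of 0.05. Aloxe3 replicate 9 stood apart from the other libraries of its group. Its counts differed from those of replicates 7 and 8 with chi-square values divided by their degrees of freedom of 10.6 and 11.4, against 4.19 between replicates 7 and 8 and 5.52 to 6.94 among the β-gal libraries. Values without replicate 9 are therefore given beside the results that it touches. The 7 hepatocyte markers summed to 5080 to 5110 RPKM in the controls and 4900 to 5070 RPKM in the Aloxe3 libraries, mostly Alb (4360 to 4550 RPKM). Apoa1 (241 to 246 and 218 to 235 RPKM) and Serpina1a (51.5 to 53.5 and 47.9 to 48.5 RPKM) were lower in each Aloxe3 library than in any control, whereas Cps1 and Tat were low for hepatocytes and higher in each Aloxe3 library than in any control. Cps1 had 0.915 to 1.05 RPKM in the controls and 1.29 to 1.64 RPKM in the Aloxe3 libraries (adjusted p = 0.161 from limma), and Tat 0.193 to 0.346 and 0.438 to 0.661 RPKM, below the filter. Their part in the ligand values was not tested.

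All 10 CXC ligand genes were expressed above the filter, and 0 of them differed between groups at an adjusted p of 0.05 in limma. The background was 0.394% of all tested genes. The count was also 0 with limma-voom on reads derived from the RPKM values, an alternative that covers all 10 genes, was chosen after seeing the data and called 1.36% of all its genes. At an unadjusted p under 0.05, Cxcl2, Cxcl3 and Cxcl5 were higher with Aloxe3 in limma, 3 of 10 members against 7.31% of all tested genes, and 0 of 10 were lower, against 5.42%. That count of 3 ranged from 1 to 4 when single libraries were left out, and it was 1 without the filter on low values and 2 after rescaling all libraries to the same median. After that rescaling the shares of all tested genes were 5.99% higher and 8.22% lower, so the balance of the background depends on the scaling. The count of lower members was 1, Cxcl14, after quantile normalization (unadjusted p = 0.0449 from limma, beside 5.82% of all tested genes). It was also 1 without Aloxe3 replicate 9 (4.75%). The groups did not overlap for Cxcl2 and Cxcl5, both higher, which is 2 of 10 against 11.2% of all tested genes, and for 0 of 10 in the lower direction, against 8.71%. The median difference of the 10 genes in log2(RPKM + 1) was 0.081 (0.058 without Aloxe3 replicate 9), beside 0.005 over all tested genes, and 8 of the 10 had a higher mean with Aloxe3, as had 52.4% of all tested genes.

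In the ELR group the median difference was 0.3 on the log2(RPKM + 1) scale, with all 4 means higher. The medians of the other groups were 0.06 for Cxcl9, Cxcl10 and Cxcl11, -0.05 for Cxcl12 and Cxcl14, and 0.03 for Cxcl16. Without Aloxe3 replicate 9 the ELR median was 0.24. Whether the groups of ligands differ from each other was not tested.

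**Figure D1:**
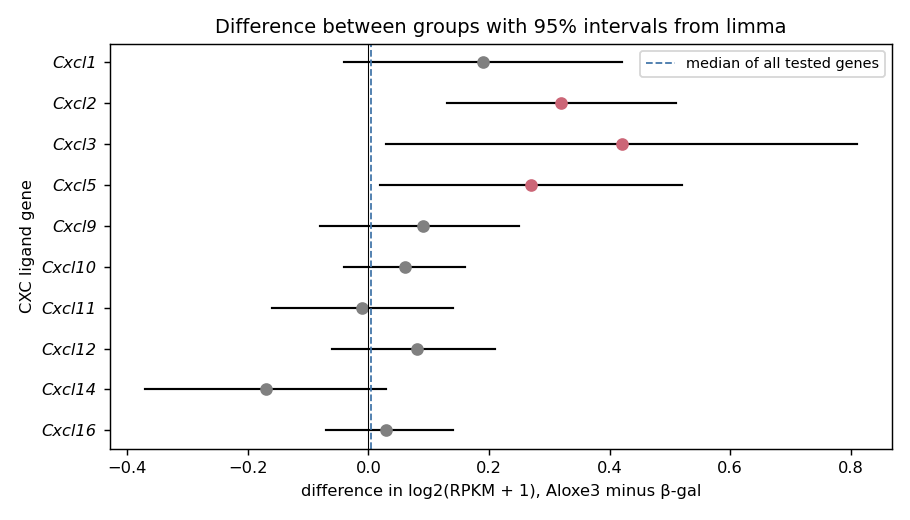
Difference in log2(RPKM + 1) between Aloxe3 and β-gal libraries (x axis) for each CXC ligand gene (y axis), with 95% intervals from limma over 3 libraries per group; colored points have intervals above 0 and the dashed line is the median of all tested genes. Cxcl2, Cxcl3 and Cxcl5 have intervals above 0 without passing the adjusted threshold, and the intervals of the other 7 genes include 0.

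The same genes led the ligand transcripts in both groups. Cxcl1 was the most abundant, at 147 ± 8.83 RPKM (SD, n = 3) with β-gal, above 97.9% of the tested genes, followed by Cxcl16 at 53.5 ± 1.57 RPKM (SD, n = 3), above 92.2%. Cxcl3, Cxcl2, Cxcl10, Cxcl5, Cxcl12, Cxcl11, Cxcl9 and Cxcl14 followed in this order of mean RPKM, which was the order with Aloxe3 as well. Neighbors in that order did not overlap, with the exceptions of Cxcl5 and Cxcl12 in the β-gal libraries, and Cxcl10 and Cxcl5 as well as Cxcl11 and Cxcl9 in the Aloxe3 libraries. Added up, the 10 genes had 252, 245 and 237 RPKM in the β-gal libraries and 253, 268 and 313 RPKM in the Aloxe3 libraries. The lowest Aloxe3 sum was close to the highest β-gal sum, and replicate 9 was the highest of all. Cxcl1 made up 58.1 to 63.1% of that sum, Cxcl16 16.9 to 22.6% and Cxcl3 5.87 to 9.03%.

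**Figure D2:**
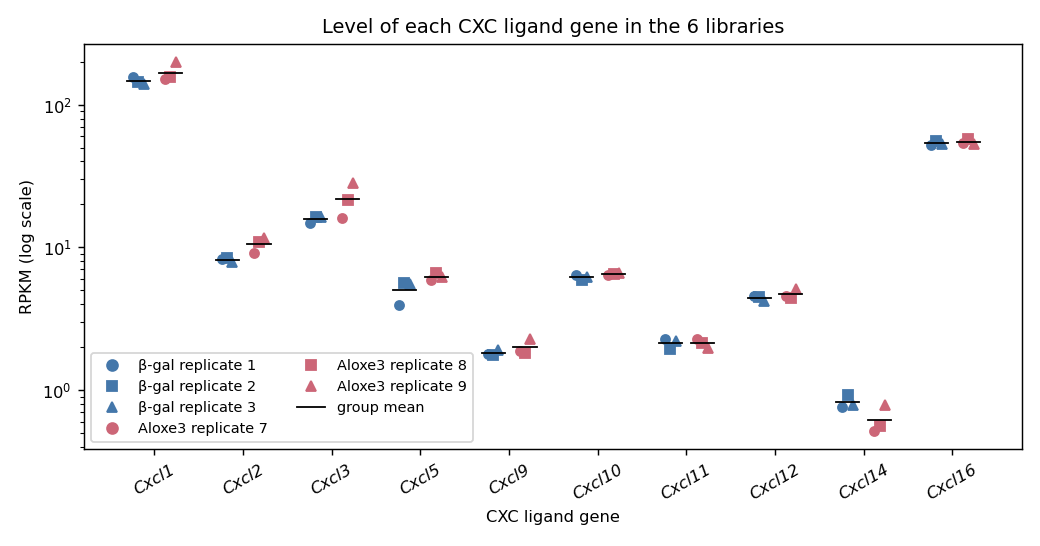
RPKM on a log axis (y) of each CXC ligand gene (x) in the 3 β-gal and 3 Aloxe3 libraries, 1 point per library, with a line at the mean of each group. Cxcl1 is the highest gene in every library (139 to 198 RPKM) and Cxcl14 the lowest (0.516 to 0.93 RPKM).

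Cxcl1 (ENSMUSG00000029380; GRCm38 chr5:90891241-90893115, forward strand), the keratinocyte-derived chemokine KC that draws neutrophils into tissue, had 156, 144 and 139 RPKM in the β-gal libraries and 152, 156 and 198 RPKM in the Aloxe3 libraries. The groups overlapped, and the library that stood above the others was replicate 9. The difference was 0.19 (SE 0.0989, 95% interval -0.04 to 0.42, adjusted p = 0.473 from limma) and was 0.07 without replicate 9. With at least 3694 reads per library, counting error was 1.51% of the level, well below the SD between Aloxe3 libraries of 15% of their mean.

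Cxcl2 (ENSMUSG00000058427; chr5:90903871-90905938, forward strand), the macrophage inflammatory protein MIP-2 and another ligand of Cxcr2, had 8.32, 8.43 and 7.89 RPKM in the β-gal libraries and 9.11, 10.9 and 11.7 RPKM in the Aloxe3 libraries. All Aloxe3 libraries lay above all β-gal libraries, with replicate 7 nearest to the controls. The means of 8.21 ± 0.283 and 10.5 ± 1.31 RPKM (SD, n = 3 each) stood in a ratio of 1.28. On the log2(RPKM + 1) scale the difference was 0.32 (SE 0.0801, 95% interval 0.13 to 0.51, unadjusted p = 0.0044, adjusted p = 0.217 from limma), which ranked 257th among all tested genes by p. Without replicate 9 the difference was 0.25 (adjusted p = 0.318), and over all alternatives the adjusted p ran from 0.0768 to 0.496.

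Cxcl3 (ENSMUSG00000029379; chr5:90786103-90789600, forward strand), a close relative of Cxcl2 with the same receptor, had 14.8, 16.4 and 16.2 RPKM in the β-gal libraries and 16.1, 21.4 and 28.3 RPKM in the Aloxe3 libraries. Replicate 7 lay within the β-gal range, and replicates 8 and 9 lay above it. The difference was 0.42 (SE 0.168, 95% interval 0.03 to 0.81, unadjusted p = 0.0398, adjusted p = 0.367 from limma), the value with the largest SE of the 10 genes. Without replicate 9 it was 0.22 (adjusted p = 0.478), and without replicate 7 it was 0.61 (adjusted p = 0.148).

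Cxcl5 (ENSMUSG00000029371; chr5:90759360-90761624, forward strand), known as LIX and made by epithelial cells, had 3.97, 5.59 and 5.52 RPKM in the β-gal libraries and 5.92, 6.58 and 6.17 RPKM in the Aloxe3 libraries. The groups did not overlap, but β-gal replicate 1 was far below the other libraries while the other controls came close to Aloxe3 replicate 7. The difference was 0.27 (SE 0.107, 95% interval 0.02 to 0.52, unadjusted p = 0.0355, adjusted p = 0.354 from limma). Leaving out β-gal replicate 1 gave 0.14 and leaving out Aloxe3 replicate 9 gave 0.28, so that Cxcl5, unlike Cxcl1 and Cxcl3, had its value lowered most by a control library.

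**Figure D3:**
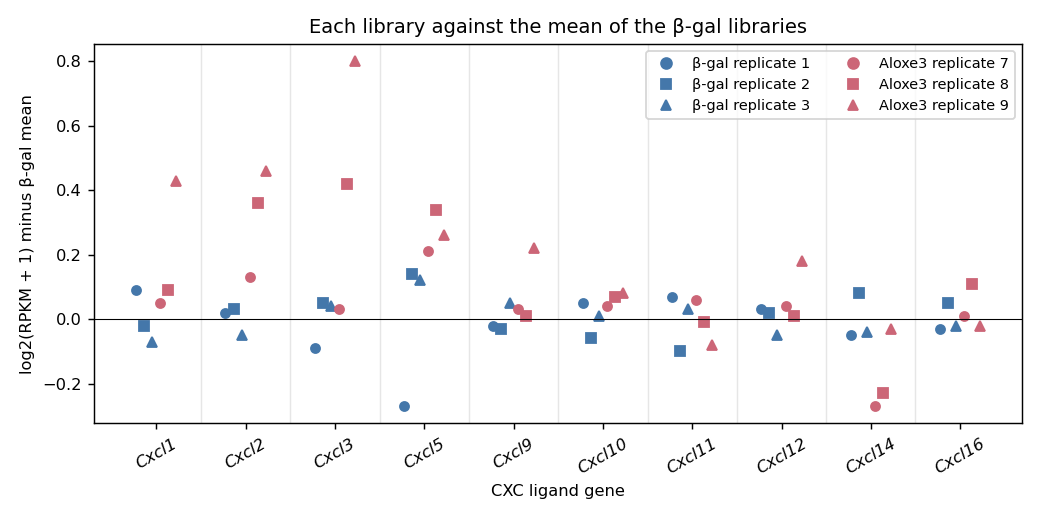
log2(RPKM + 1) of each CXC ligand gene in each library minus the mean of the β-gal libraries (y axis), by gene (x axis), 1 point per library. Aloxe3 replicate 9 is the highest library for Cxcl1 (0.43), Cxcl2 (0.46) and Cxcl3 (0.8), whereas for Cxcl5 the Aloxe3 libraries lie between 0.21 and 0.34 and β-gal replicate 1 (-0.27) is the lowest library.

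Ratios between ELR genes were read within each library. Cxcl1 had 18.8, 17.1 and 17.6 times the RPKM of Cxcl2 in the β-gal libraries and 16.7, 14.3 and 16.9 times in the Aloxe3 libraries. All Aloxe3 ratios were below all β-gal ratios, but the nearest, 16.9 and 17.1, differed by less than the counting error of Cxcl2 (5.88% of its level). The ratio of Cxcl1 to Cxcl3 was 10.6, 8.78 and 8.59 with β-gal and 9.42, 7.27 and 6.99 with Aloxe3, and here the groups overlapped. The ratio of Cxcl3 to Cxcl2 was 1.78, 1.95 and 2.06 with β-gal and 1.77, 1.97 and 2.42 with Aloxe3, so that the groups overlapped and replicate 9 had the highest ratio. These ratios were not tested. The transcripts of Cxcl2 and Cxcl3 share 126 windows of 50 bases, the read length, of 2159 and 3587 windows. Reads from those windows have no unique place and were dropped by the authors, who counted uniquely aligned reads, so the levels of both genes leave them out.

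Of the interferon-induced ligands, Cxcl10 (ENSMUSG00000034855; chr5:92346638-92348889, reverse strand), also called IP-10, had 6.42, 5.9 and 6.21 RPKM in the β-gal libraries and 6.39, 6.51 and 6.57 RPKM in the Aloxe3 libraries. The groups overlapped and lay within a narrow band. The difference was 0.06 (SE 0.043, 95% interval -0.04 to 0.16, adjusted p = 0.577 from limma). It ran from 0.03 without β-gal replicate 2 to 0.09 without β-gal replicate 1. Cxcl9 (ENSMUSG00000029417; chr5:92321347-92328079, reverse strand), the monokine induced by interferon gamma, had 1.78, 1.75 and 1.91 RPKM in the β-gal libraries and 1.87, 1.83 and 2.27 RPKM in the Aloxe3 libraries. Its groups overlapped, with replicate 9 above the rest, and the difference was 0.09 (95% interval -0.08 to 0.25, adjusted p = 0.64), or 0.02 without replicate 9. Cxcl11 (ENSMUSG00000060183; chr5:92359544-92365485, reverse strand), the third ligand of Cxcr3, had 2.29, 1.93 and 2.2 RPKM in the β-gal libraries and 2.27, 2.12 and 1.96 RPKM in the Aloxe3 libraries. Here replicate 9 was the lowest Aloxe3 library, and the difference was -0.01 (95% interval -0.16 to 0.14, adjusted p = 0.963), or 0.03 without it. In all 3 genes the upper end of the interval stayed at or below 0.25 on the log2(RPKM + 1) scale. Cxcl10 and Cxcl11 lie inside Art3 on the opposite strand, and the library protocol is not stated to mark strand. The authors counted only unambiguous reads, so reads that could be assigned to both genes were left out, and how many is not given. Art3 itself had only 0.0669 to 0.18 RPKM.

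The constitutive ligands and Cxcl16 did not pass the test either. Cxcl12 (ENSMUSG00000061353; chr6:117168535-117181367, forward strand), the stromal factor SDF-1 that retains cells through Cxcr4, had 4.55, 4.48 and 4.23 RPKM in the β-gal libraries and 4.58, 4.44 and 5.14 RPKM in the Aloxe3 libraries. Replicate 9 was again the highest and the groups overlapped (difference 0.08, 95% interval -0.06 to 0.21, adjusted p = 0.612). Without replicate 9 the Cxcl12 difference was 0.02. Cxcl16 (ENSMUSG00000018920; chr11:70453983-70459984, reverse strand), which is shed from the membrane by metalloproteases and also takes up oxidized lipids, had 52.5, 55.3 and 52.7 RPKM in the β-gal libraries and 53.9, 57.9 and 52.8 RPKM in the Aloxe3 libraries. Its groups overlapped with a difference of 0.03 (95% interval -0.07 to 0.14, adjusted p = 0.795), measured on at least 4152 reads per library, and 0.06 without replicate 9. Part of Cxcl16, 552 bases, is shared with Zmynd15 on the opposite strand, which had 2.85 to 3.76 RPKM.

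Cxcl14 (ENSMUSG00000021508; chr13:56288643-56296551, reverse strand), a chemokine of epithelia with effects on monocytes, was the gene with the most negative difference. It had 0.765, 0.93 and 0.779 RPKM in the β-gal libraries and 0.516, 0.559 and 0.789 RPKM in the Aloxe3 libraries. Replicates 7 and 8 lay below every β-gal library, and replicate 9 lay within the β-gal range. The difference was -0.17 (SE 0.0854, 95% interval -0.37 to 0.03, adjusted p = 0.446 from limma), or -0.25 without replicate 9 (adjusted p = 0.338). The ratio of the mean RPKM was 0.753. The added constant pulls low genes toward 0, and the difference was -0.37 with a pseudocount of 0.1 (adjusted p = 0.453), when that of Cxcl2 was 0.35. The order of the ligands by size of difference therefore depends on this constant. Counting error was large here, at 16% of the level.

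Leaving out Aloxe3 replicate 9 changed which genes passed an unadjusted p of 0.05 in limma. It was then reached by 1 higher gene, Cxcl2 (7.46% of all tested genes), and 1 lower gene, Cxcl14 (4.75%). The groups did not overlap for 2 higher genes and 1 lower gene, beside 19% and 12.2% of all tested genes in this smaller comparison. The count of higher genes at that p was also 1 without Aloxe3 replicate 8 (6.55% of all tested genes), with 0 lower (5.07%). The median of the 10 genes relative to the β-gal mean was 0.198 for replicate 9, 0.077 for replicate 8 and 0.043 for replicate 7, and lay between -0.008 and 0.025 in the β-gal libraries.

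The ELR genes and the interferon-induced genes sit in 2 stretches of chromosome 5, and the other genes there were read for comparison. From Cxcl5 to Cxcl2, with 200 kb on each side, 5 other genes were tested. Their median difference was 0.06, beside 0.3 for the 4 ELR genes among them. One of the 5 was Pf4, the platelet CXC chemokine Cxcl4. Around Cxcl9, Cxcl10 and Cxcl11 there were 6 other tested genes with a median of 0, beside 0.06 for the ligands.

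**Figure D4:**
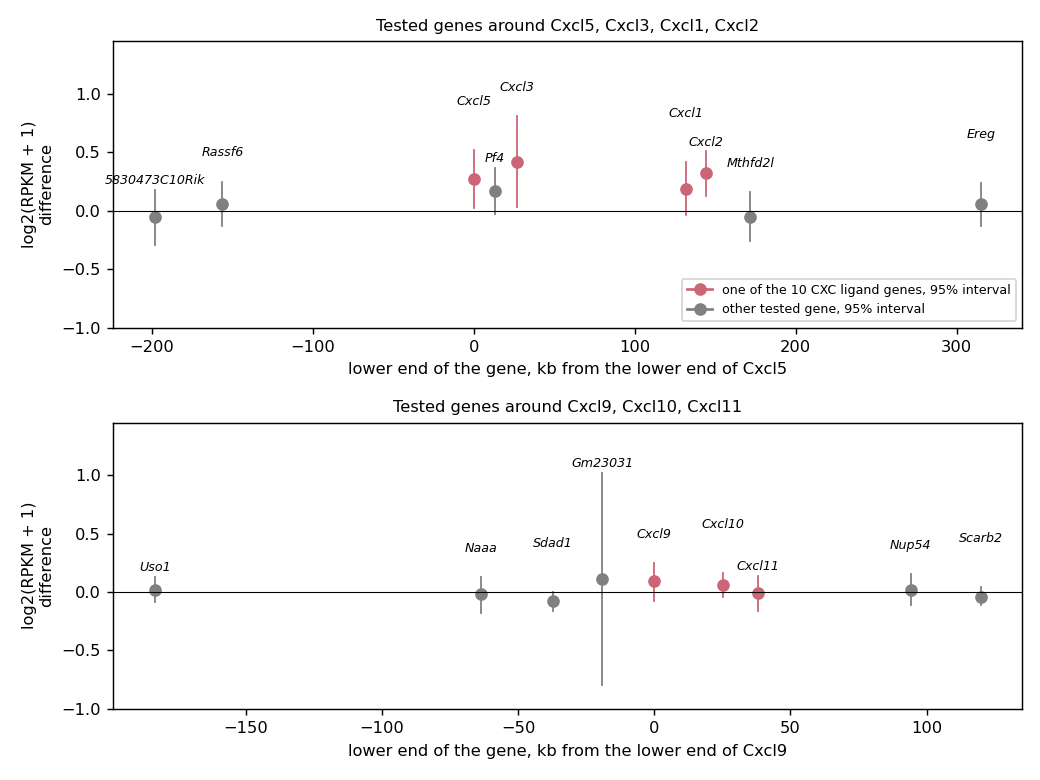
Difference in log2(RPKM + 1), Aloxe3 minus β-gal (y axis), with 95% intervals from limma, against the distance in kb from Cxcl5 (top) or Cxcl9 (bottom) on chromosome 5, for tested genes within 200 kb. The 4 ELR genes (0.19 to 0.42) have the highest values in the top panel, and values in the bottom panel lie near 0 with a wide interval for Gm23031.

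The genes whose pattern over the 6 libraries was most like that of Cxcl2 were Emsy (Pearson r = 0.9946), Apex2 (0.9934) and Rad18 (0.993), and 238 of the 12693 tested genes had an r of at least 0.9. For Cxcl5 they were Hnrnpr (0.9951), Cyp2c50 (0.9951) and Katnal1 (0.9935), with 215 genes at 0.9 or above. These values describe only 6 libraries, which differ in group and in depth, and either difference can raise r. Cxcl2 and Cxcl5 were picked by their p between the groups of these same libraries. Such counts were not made for other genes, so these values single out no relation between genes.

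Other CXC ligands were scarce. Cxcl13, the B cell attractant, had 0.714, 0.474 and 0.606 RPKM in the β-gal libraries and 1.2, 0.814 and 0.678 RPKM in the Aloxe3 libraries, on 18 to 36 reads. Its groups overlapped and the adjusted p was 0.423 (limma, difference 0.24). Pf4 had 0.317, 0.526 and 0.519 RPKM in the β-gal libraries and 0.602, 0.73 and 0.581 RPKM in the Aloxe3 libraries. Its groups did not overlap, but rested on 6 to 13 reads per library (difference 0.17, adjusted p = 0.446). Ppbp, the platelet precursor of neutrophil-activating peptide, had at most 0.327 RPKM, Cxcl15 at most 0.029 and Cxcl17 at most 0.618, and these were below the filter.

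The receptors that read the ELR and interferon-induced ligands were nearly missing from the culture. Cxcr1 was at 0 in every library, Cxcr2 at 0.0124 RPKM or less, and Cxcr3 at 0 in all but β-gal replicate 3, which had 0.0391 RPKM. Cxcr6, the receptor of Cxcl16, averaged 0.129 RPKM in the controls and 0.195 RPKM in the Aloxe3 libraries and was not tested. Cxcr4, the Cxcl12 receptor, had 1.17, 0.853 and 0.991 RPKM in the β-gal libraries and 0.802, 0.855 and 0.691 RPKM in the Aloxe3 libraries, which overlapped by a narrow margin (difference -0.17, adjusted p = 0.432 from limma). The scavenging receptors Ackr3 (1.5 and 1.54 RPKM) and Ackr1 (1.34 and 1.3 RPKM) had adjusted p-values of 0.928 each. Of 8 receptors 3 were tested, and 0 passed in limma, with 0 at an unadjusted p under 0.05, which with 3 genes and the shares of 0.394%, 7.31% and 5.42% over all tested genes says nothing particular about the receptors.

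The wider pathway was read from lists of 80 genes, of which 70 were tested: other ligands, receptors, release and matrix binding, transcript stability, NF-κB input, interferon input and receptor coupling. In limma 0 of the 70 passed the adjusted threshold, 32 had higher and 38 lower means, and the median difference was -0.01. An unadjusted p under 0.05 was reached by 6 higher and 4 lower genes of the 70, beside 7.31% and 5.42% of all tested genes, which is close to that background. With limma-voom on derived reads 2 genes were called, Dpp4 and Arrb1, both higher. They were called at the annotated exon length, which covered 46 of the 70 genes, and with the length read from the RPKM steps, which covered all 70. These fits called 1.09% of all their genes at the exon length (78 of 7139) and 1.36% at the step length (173 of 12678).

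Dpp4, the dipeptidyl peptidase that trims the amino terminus of Cxcl10 and Cxcl12, had 1.56, 1.56 and 1.52 RPKM in the β-gal libraries and 1.93, 2.01 and 1.96 RPKM in the Aloxe3 libraries. The groups were well apart, with an SD of 0.0237 and 0.0405 RPKM. In limma the difference was 0.22 (SE 0.0498, adjusted p = 0.166), and voom, which adds no constant of 1 RPKM, gave 0.35 (adjusted p = 0.0331 at the exon length). Arrb1, the β-arrestin that uncouples chemokine receptors from G proteins, averaged 1.31 ± 0.0669 RPKM in the controls and 1.7 ± 0.085 RPKM in the Aloxe3 group (SD, n = 3 per group). Its adjusted p was 0.235 in limma (difference 0.22) and 0.019 in voom at the exon length (difference 0.37). Mmp12, the macrophage metalloelastase that cleaves ELR ligands, averaged 1.27 RPKM in the controls and 1.07 RPKM in the Aloxe3 libraries (difference -0.13, adjusted p = 0.392 in limma).

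The genes known to act upstream of the ELR ligands had means in both directions. In the NF-κB list all 26 genes were tested, 11 with higher and 15 with lower means, and the median difference was -0.01. Myd88, the adaptor of IL-1 and Toll-like receptors, averaged 22.3 ± 0.838 RPKM in the controls and 19.9 ± 1.06 RPKM in the Aloxe3 libraries (SD, n = 3 per group; difference -0.15, adjusted p = 0.289 in limma). Il1r1, the IL-1 receptor, had 4.05 ± 0.206 and 4.5 ± 0.0925 RPKM (difference 0.12, adjusted p = 0.343). The NF-κB targets and inhibitors Nfkbia (32.7 and 31.6 RPKM), Tnfaip3 (26 and 25.8 RPKM) and Nfkbiz (11.8 and 11.9 RPKM) had nearly equal means.

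Among 6 genes of transcript stability, 3 had higher and 3 lower means. Zc3h12a, the RNase Regnase-1 that degrades inflammatory transcripts, had 16.8 ± 0.501 and 15.4 ± 0.338 RPKM (difference -0.11, adjusted p = 0.313 in limma), and Arid5a, which stabilizes such transcripts, 4.51 and 4.09 RPKM (difference -0.11, adjusted p = 0.446). In the interferon list 6 of 16 means were higher and 10 lower, with a median of -0.02. Ifngr1 (30.5 and 32.3 RPKM, adjusted p = 0.386) and Jak2 (10.3 and 11.2 RPKM, adjusted p = 0.392) had the smallest p of that list. In receptor coupling, Gnai3, a G protein subunit below chemokine receptors, had 54.8 ± 1.73 and 49.6 ± 2.37 RPKM (difference -0.14, adjusted p = 0.289).

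**Figure D5:**
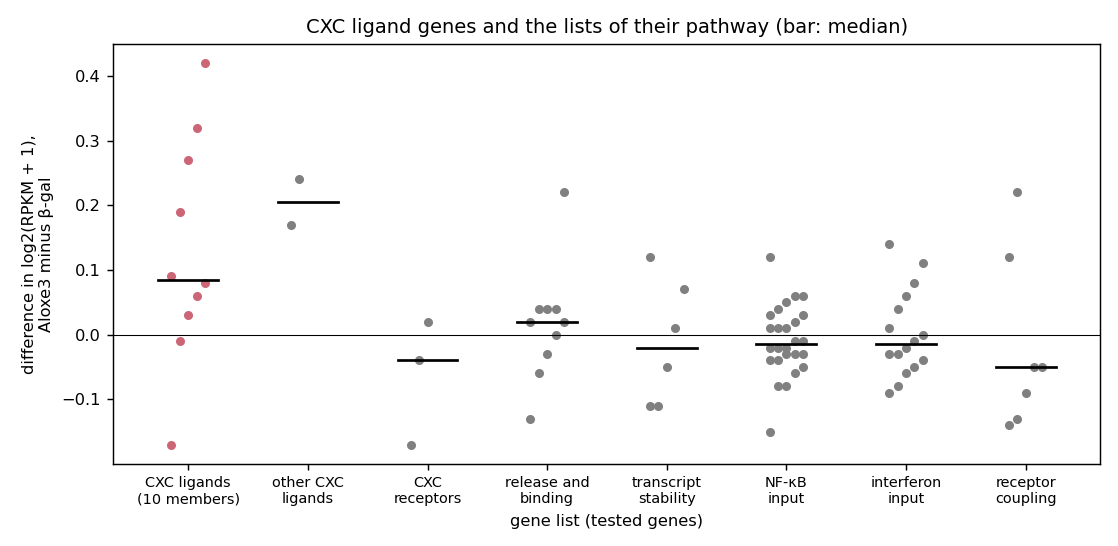
Difference in log2(RPKM + 1), Aloxe3 minus β-gal (y axis), of each tested gene of the 10 CXC ligands and of the 7 pathway lists (x axis), 1 point per gene, with a bar at the median of the list. The ligands reach 0.42 (Cxcl3), while the medians of the lists lie between -0.05 and 0.21, the latter for 2 other ligands.

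Other cells of the liver also make these ligands, so their markers were read in the same libraries. In bulk RNA, fewer cells of a type and less RNA per cell cannot be told apart. Kupffer cell markers summed to 151 to 154 RPKM in the controls and 133 to 146 RPKM in the Aloxe3 libraries, mostly Cd68. Of the other Kupffer markers, Adgre1 (1.47 to 1.99 RPKM), Csf1r (1.11 to 1.68 RPKM), Marco (0.705 to 1.18 RPKM) and Cd5l (0.355 to 1.16 RPKM) were detected in every library with overlapping groups, and Clec4f and Vsig4 were at 0.102 RPKM or less. Neutrophil markers summed to 0.393 to 0.525 RPKM in the controls and 0.371 to 0.523 RPKM in the Aloxe3 libraries, with Mpo at 0. Sums for endothelial (24.6 to 28.7 and 24.5 to 28.6 RPKM), stellate (3.39 to 3.94 and 3.54 to 3.86 RPKM) and bile duct markers (78.2 to 93.5 and 74.7 to 93 RPKM) overlapped between groups, with the stellate gene Lrat at 0. The bile duct sum was mostly Krt19 (32.9 to 51 RPKM) and Sox9 (38.3 to 49.3 RPKM), whose groups overlapped, and Krt7 was at 0.163 RPKM or less. Epcam, below the filter on 8 to 30 reads, was lower in each Aloxe3 library (0.154 to 0.334 RPKM) than in any control (0.398 to 0.456 RPKM). Lymphocyte markers reached at most 0.0527 RPKM, with Nkg7 and Ms4a1 at 0. In limma 0 of the 19 tested genes of the 7 marker lists passed the adjusted threshold. An unadjusted p under 0.05 was reached by 4 of the 19, with Cps1 higher and Apoa1, Serpina1a and Cd68 lower, beside 7.31% higher and 5.42% lower among all tested genes. The part of these cells in the ligand values was not tested.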

How the data were processed

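RNA-seq libraries (poly-A selected, single reads of 50 bases) were made for 3 β-gal and 3 Aloxe3 samples. The authors aligned reads to GRCm38.p2 with STAR 2.0.4b, counted uniquely aligned and unambiguous reads per Ensembl gene with Subread featureCounts 1.4.5, and deposited RPKM values in 1 table. The step from counts to RPKM is not given in the sources used here. Symbols and GRCm38 coordinates came from GENCODE M21 (40254 identifiers matched, 1134 did not), and promoters from RefSeq (GRCm38.p6).

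Genes whose mean reached 0.5 RPKM were tested as log2(RPKM + 1) in R 4.3.3 by limma version 3.58.1 (linear models with trended eBayes, two-sided, all 6 libraries, no covariate). This scale understates differences of low genes. Exact permutation of 3 against 3 libraries cannot go below 0.1, so none was run. Library sizes were solved from the steps of the RPKM values, and reads were whole, within 0.01, at the M21 exon length for 16411 of 24989 genes above 0. For the others, 7 of the 10 ligands included, the shortest length giving whole reads was used, so their reads are minimum counts. Intervals are 95% and counting errors cover read counting only. Replicate pairs all differed beyond sampling noise and were kept apart. Scripts were tested on simulated data.

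The members and lists were chosen with earlier results of these data known. Genes named are the 10 members, the other CXC ligands, Aloxe3, tested receptors, the 2 genes with the smallest p in each list, and the 3 most alike to the 2 members with the smallest p. Receptors below the filter, Nfkbia, Tnfaip3, Nfkbiz, the neighbors and the markers were named beyond this rule. Alternatives were a pseudocount of 0.1, other filters, rescaling, quantile normalization, eBayes without trend, voom, a stricter threshold and each library left out.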

Additional observations from a re-analysis of the deposited data

How the results depend on the processing

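The count of CXC ligand genes past the adjusted threshold was 0 under every alternative run. Over all tested genes the count of 50 was 7 without a filter (24989 genes), 8 at an adjusted p of 0.01, 78 with voom at the exon length (7139 genes, 3 of the ligands) and 173 with voom at the step length (12678 genes), an alternative chosen after seeing the data, and it ran from 6 to 19 with single libraries left out. For the pathway lists the count was 0 in limma and 2 with each voom fit (46 genes covered at the exon length and 70 at the step length). The median of the ligands, 0.081, was 0.231 when a mean of 5 RPKM was required, which keeps 6 of the 10 genes, and 0.035 with voom at the exon length, which covers 3 of them, and it ran from 0.058 to 0.118 with single libraries left out. The difference of Cxcl11 turned sign with libraries left out (-0.06 to 0.03), as did that of Cxcl16 (-0.01 to 0.06). No other ligand turned sign in the alternatives run. Rescaling moved the median of all genes to -0.006. No paired analysis was possible because the groups share no replicate number. Depth limited Cxcl14 most. The causes of these shifts, beyond the number of genes or libraries in the fit, were not tested.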
